A study of Mus musculus with 11 samples.

Results

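Interferon response genes are the genes that cells switch on after sensing interferon, and 31 of them were followed here in mouse liver. They were taken from a list of symbols that was chosen with earlier results of these data known. Each gene was read from its brightest probe. Of the 31 genes, 29 were measured among the 15460 genes tested. Isg15, the ubiquitin-like modifier, had no probe under that or an older symbol, and the probe of Ifit1, an antiviral RNA-binding protein, was detected on 0 of 11 arrays. Of the 29, 25 were detected on all 11 arrays, while Oas3 was detected on 10, Mx1 on 8, Oas1a on 7 and Ifi44 on 6.

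Liver RNA was hybridised to 11 Illumina BeadChip arrays in 4 groups, which were lean mice with FXR-K217Q (3 arrays), lean mice with FXR-WT (2 arrays), obese mice with FXR-K217R (3 arrays) and obese mice with FXR-WT (3 arrays). Array titles begin with ND for the lean groups and with HFD for the obese groups, and the labels do not spell these out. All mice were male C57BL/6J, with an age given as 8 weeks on every array. All had received an adenovirus carrying the FXR construct and then, overnight, the synthetic FXR agonist GW4064 at 30 mg/kg. FXR (gene symbol Nr1h4) is the nuclear receptor for bile acids, and both mutants replace the same lysine, with glutamine in K217Q and with arginine in K217R. The labels name no deletion of the mice's own FXR, so the construct adds to it, and every group carries virus and agonist, so neither could be compared with its absence. Construct and obesity differ together between the mutant groups. Whether replicate arrays come from separate mice is not stated, so a p-value here covers array-to-array spread, which may be technical.

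Interferons signal through a short relay. Type I interferons (alpha and beta) bind a receptor whose kinases Jak1 and Tyk2 activate Stat2, which joins Irf9 in a complex that binds a DNA element called the ISRE. Interferon gamma, made mainly by T and NK cells, acts through Jak1 and Jak2 on genes that carry the GAS element, and it induces Irf1. In the liver both hepatocytes and resident macrophages answer these signals. The listed genes cover the relay itself (Stat2, Irf9, Irf7), sensors of viral RNA (Ddx58, Ifih1, Dhx58), antiviral effectors (the Oas, Ifit and Mx families, Rsad2, Bst2 and Ifi44), Usp18, which removes Isg15 from proteins and restrains the receptor, the T cell attractant Cxcl10, GTPases that attack intracellular microbes (Gbp2, Gbp3, Irgm1, Igtp, Ifi47, Iigp1), and the class I antigen-processing genes Psmb8, Psmb9 and Tap1.

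The promoters of 5 members named in most comparisons below are shown, with matches to the letters of the ISRE and GAS elements marked. Each is the RefSeq window of 300 bases on build GRCm38.p6, from 250 bases before to 50 bases after the annotated start, written 5′ to 3′ on the gene's strand. Capitals mark 2 kinds of match, searched on both strands: GAAA, any 2 bases and GAAA again (ISRE), and TTCNNNGAA (GAS), where N is any base. Oas3, which makes the RNase L activator 2-5A, lies at chr5:120777610-120777909 on the minus strand. Bst2, or tetherin, which holds budding virions at the cell surface, lies at chr8:71537423-71537722 on the minus strand. Cxcl10 lies at chr5:92348840-92349139 on the minus strand, Gbp2 at chr3:142620413-142620712 on the plus strand and Psmb8, an immunoproteasome subunit, at chr17:34197945-34198244 on the plus strand.
Oas3: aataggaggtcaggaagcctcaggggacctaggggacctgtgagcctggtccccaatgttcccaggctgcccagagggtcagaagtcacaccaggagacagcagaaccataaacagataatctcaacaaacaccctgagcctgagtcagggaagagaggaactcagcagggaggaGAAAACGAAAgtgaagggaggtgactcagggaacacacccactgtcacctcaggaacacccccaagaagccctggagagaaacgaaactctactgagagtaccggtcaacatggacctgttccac
Bst2: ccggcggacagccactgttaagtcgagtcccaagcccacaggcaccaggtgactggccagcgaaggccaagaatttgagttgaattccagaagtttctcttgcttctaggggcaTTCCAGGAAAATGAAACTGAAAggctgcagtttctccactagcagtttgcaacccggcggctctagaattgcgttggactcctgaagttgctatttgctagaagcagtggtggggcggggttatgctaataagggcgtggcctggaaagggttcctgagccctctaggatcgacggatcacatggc
Cxcl10: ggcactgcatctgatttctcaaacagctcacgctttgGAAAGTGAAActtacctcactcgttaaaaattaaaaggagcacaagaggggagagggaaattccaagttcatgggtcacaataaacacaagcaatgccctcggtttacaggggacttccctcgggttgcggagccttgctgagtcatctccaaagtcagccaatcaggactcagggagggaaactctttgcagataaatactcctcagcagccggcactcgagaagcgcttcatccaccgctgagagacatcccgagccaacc
Gbp2: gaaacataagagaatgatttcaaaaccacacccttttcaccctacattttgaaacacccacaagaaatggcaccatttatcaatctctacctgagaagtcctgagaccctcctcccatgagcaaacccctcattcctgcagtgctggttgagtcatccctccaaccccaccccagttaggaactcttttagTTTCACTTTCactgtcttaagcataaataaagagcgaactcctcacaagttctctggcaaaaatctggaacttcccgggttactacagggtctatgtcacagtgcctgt
Psmb8: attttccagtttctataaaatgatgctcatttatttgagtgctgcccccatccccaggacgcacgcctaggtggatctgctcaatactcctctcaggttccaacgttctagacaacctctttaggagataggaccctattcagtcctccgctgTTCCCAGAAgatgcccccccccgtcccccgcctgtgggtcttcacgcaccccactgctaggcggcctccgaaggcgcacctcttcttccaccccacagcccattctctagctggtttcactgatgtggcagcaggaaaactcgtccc

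The ISRE letters began 75 bases before the start in Oas3, 213 bases before it in Cxcl10 and 59 bases before it in Gbp2, where they read on the opposite strand. Bst2 held the ISRE letters at 130 and at 124 bases before the start, overlapping each other, and GAS letters at 136 bases that run into them. Psmb8 held no ISRE letters and GAS letters 97 bases before its start. Of the 31 listed genes, 25 had an entry in the promoter table, and 15 of the 25 (60.0%) held the ISRE letters, against 3.99% of all 27025 genes with an entry. Of the 25, 7 (28%) held them more than once in a window, against 0.266% of all genes. The GAS letters were in 5 of the 25 (20%), against 9.55% of all genes. A match is a description of the sequence and not a measured binding site.

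**Figure D1:**
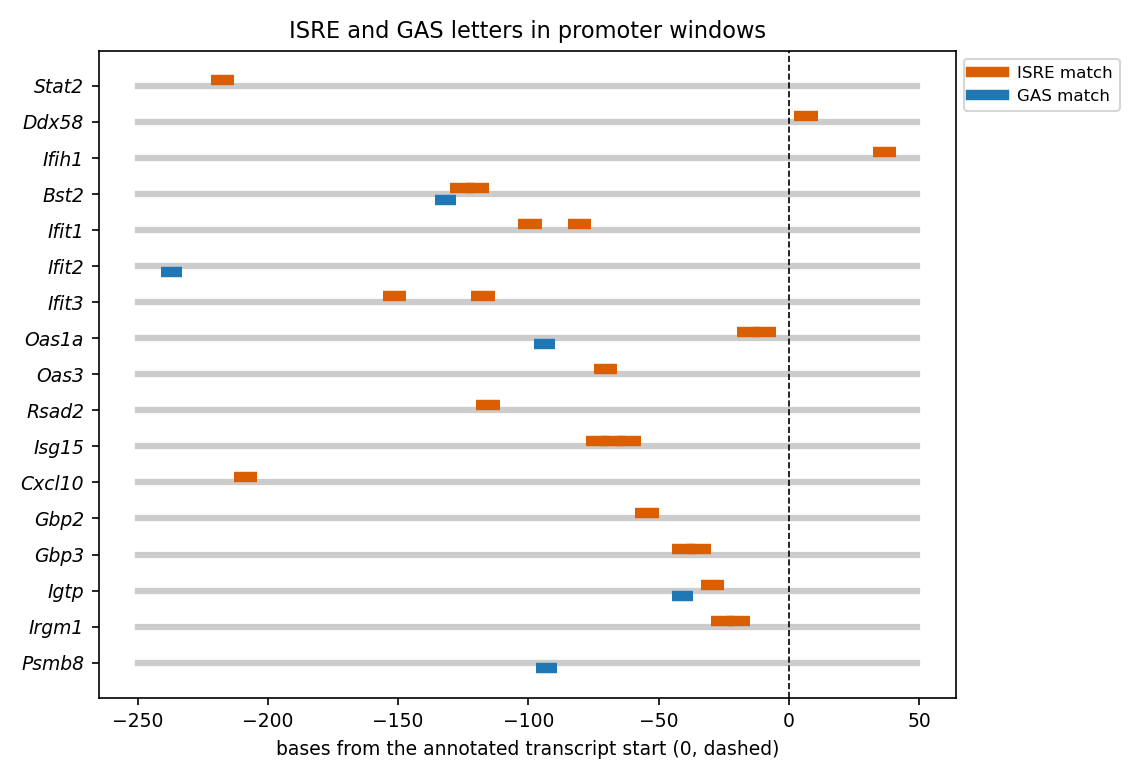
Positions of the ISRE letters (orange) and GAS letters (blue) in the promoter windows of the listed genes that hold either. The horizontal axis is the distance in bases from the annotated start (dashed line), and each grey bar is a window of 300 bases. Every ISRE match lies before the start but those of Ddx58 and Ifih1, and Ifit2 and Psmb8 hold only a GAS match.

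Between 18263 and 19500 of 45281 probes were detected per array, with a mean of 41.9 to 44 beads per probe. The members' bead-to-bead standard error had a median of 3.67% of the intensity (range 2.99% to 12.0%), so the number of arrays limits the precision. The highest value was that of Bst2, the least precise of the members' probes used. Hepatocyte markers (5 of 5 measured, among them Alb and Ttr) had a mean log2 level of 12.8 to 13.4 on every array. Nr1h4 itself, read by a probe not known to separate the construct from the mouse's own transcript, had a change of -0.10 in lean FXR-K217Q against lean FXR-WT and of 0.30 in obese FXR-K217R against obese FXR-WT on the log2 scale, and it passed 5% FDR in neither. The lean value ran from -0.17 without FXR-WT replicate 1 to 0.0085 without FXR-K217Q replicate 2. Lean FXR-K217Q replicate 3 correlated least with its own group across genes (mean r = 0.981), followed by obese FXR-WT replicate 1 (0.986). Values that shift with a single array are given beside the results below.

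The members varied together from array to array within groups. After group means were taken out, the median correlation of a member with the mean of the other members was 0.75 over the 11 arrays in 4 groups, and 20 of 29 members were above 0.5. These arrays share their labelling and normalization, so the value is a description. The type I targets Ifit3 (0.98) and Oasl2 (0.96) followed the others most closely, and the RNA sensors Ddx58 (0.16) and Ifih1 (0.21) least. The spread within groups was wide: the members' median residual SD was 0.39 on the log2 scale, against 0.21 for all genes, and 90.8% of all genes varied less than the median member.

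Lean FXR-K217Q replicate 1 lay above its group mean for 29 of 29 members and replicate 3 for 5 of 29. Replicate 3 was the lowest of all 11 arrays for 10 members, including Ifit2, Ifit3, Oasl1, Oasl2, Rsad2, Usp18 and Bst2. Ifit3, for example, was 11.95, 11.34 and 10.57 on the lean FXR-K217Q arrays, against 11.43 and 10.99 on the lean FXR-WT arrays. The mutant arrays thus spanned the whole range of lean FXR-WT for this gene. Among the obese arrays, FXR-K217R replicate 1 lay above its group mean for only 2 of 29 members and replicate 2 for 27 of 29. Replicate 1 was the lowest of the 11 for Irf9, Mx1, Mx2, Oas2 and Stat2.

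**Figure D2:**
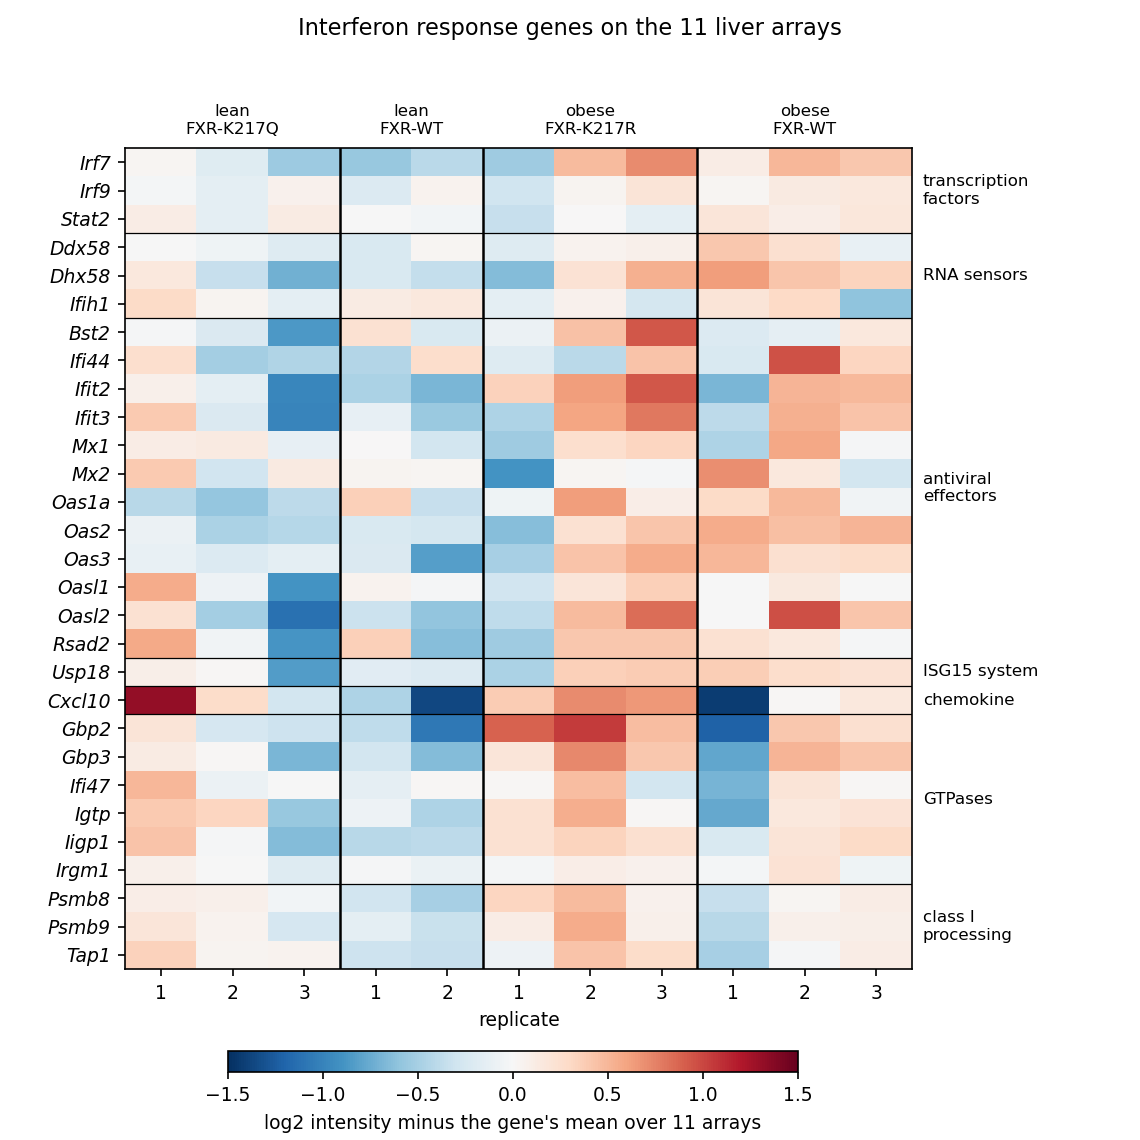
Log2 intensity of the 29 measured interferon response genes on the 11 arrays, each minus the gene's own mean over all arrays, with genes in rows by role and arrays in columns by group. Red is above and blue below the gene's mean. Lean FXR-K217Q replicate 3 is blue for most antiviral effectors, and obese FXR-WT replicate 1 is blue for Cxcl10 and the GTPases while Oas2, Stat2 and Dhx58 are red there.

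Members differed in part by role on obese FXR-WT replicate 1. The antiviral effectors were mixed there, with 5 of 12 above their own mean over all arrays and a median difference of -0.01 from it. On this array Cxcl10, Gbp2, Gbp3, Igtp, Ifi47, Psmb9 and Tap1 were the lowest of all 11 arrays, whereas Mx2, Oas2, Stat2, Ddx58 and Dhx58 were the highest. The roles were therefore pooled, after these values were seen, into a set of 10 genes (Cxcl10, the GTPases and the class I genes) and a set of 19 genes (regulators, sensors, antiviral effectors and Usp18), and no test was made of either. Within groups the median correlation between genes over the 11 arrays was 0.79 inside the set of 10 genes, 0.50 inside the set of 19 and 0.31 between the sets. Obese FXR-WT replicate 1, whose values led to the pooling, is among these arrays. A higher correlation inside than between the sets was therefore partly built in.

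For the set of 10 genes, the median difference from each gene's own mean over all arrays was 0.27, 0.03 and -0.26 on the lean FXR-K217Q arrays, against -0.28 and -0.43 on the lean FXR-WT arrays. It was 0.20, 0.51 and 0.16 on the obese FXR-K217R arrays, against -0.60, 0.17 and 0.13 on the obese FXR-WT arrays. All mutant arrays but lean FXR-K217Q replicate 3 were thus above 0, as were the other 2 obese FXR-WT arrays, and the lowest value of all was that of obese FXR-WT replicate 1. The set of 19 genes gave 0.11, -0.18 and -0.45 in lean FXR-K217Q, against -0.18 and -0.27 in lean FXR-WT. It gave -0.38, 0.25 and 0.40 in obese FXR-K217R, against 0.18, 0.29 and 0.17 in obese FXR-WT. Here the mutant arrays lay on both sides of the FXR-WT arrays, and the 3 obese FXR-WT arrays were all above both lean FXR-WT arrays.

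**Figure D3:**
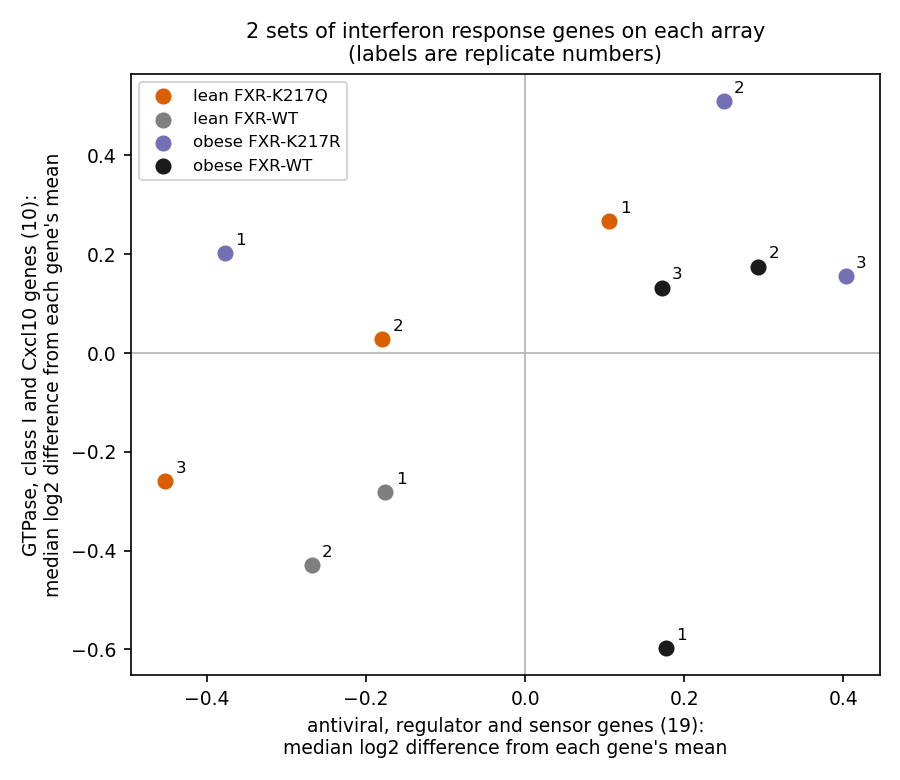
Each point is one array, with the replicate number beside it and the colour giving the group. The axes are the median log2 difference from each gene's own mean over 11 arrays, over the 19 antiviral, regulator and sensor genes (horizontal) and the 10 GTPase, class I and Cxcl10 genes (vertical). Obese FXR-WT replicate 1 lies at 0.18 and -0.60, apart from its group.

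The first comparison asks what the acetyl-lysine mimic FXR-K217Q did in lean livers, relative to FXR-WT. In lean FXR-K217Q livers 0 of the 29 members passed 5% FDR in limma, higher or lower, as did 0% of all genes in each direction. At an unadjusted p under 0.05, 3 members were higher and 0 lower, where 2.95% of all genes were higher and 4.26% lower. The 3 were Cxcl10, Psmb8 and Tap1. The members' median change was 0.05, with 20 of 29 positive, against a median of -0.0031 and 49.4% positive over all genes. That median was 0.27 without FXR-K217Q replicate 3 and 0.0085 without FXR-K217Q replicate 1. It was 0.13 without FXR-K217Q replicate 2 and 0.13 without FXR-WT replicate 1.

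Cxcl10, the chemokine that draws activated T cells, was 10.48, 9.44 and 8.89 on the lean FXR-K217Q arrays, against 8.70 and 7.80 on the lean FXR-WT arrays. The groups did not overlap, but replicate 1 stood well above the other mutant arrays. The change was 1.35 (SE 0.52, 2.55-fold, adjusted p = 0.590) in limma, 0.91 without FXR-K217Q replicate 1, 0.90 without FXR-WT replicate 2 and 1.80 without the other FXR-WT array. Another probe of Cxcl10 gave 0.93. Psmb8 was 12.29, 12.27 and 12.15 in lean FXR-K217Q, against 11.90 and 11.70 in lean FXR-WT. Its replicates lay close together and every mutant array was above both FXR-WT arrays, with a change of 0.44 (SE 0.17, adjusted p = 0.599).

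Tap1, the peptide transporter that loads class I molecules, was 9.82, 9.51 and 9.54 in lean FXR-K217Q, against 9.17 and 9.13 in lean FXR-WT, a change of 0.48 (SE 0.20, adjusted p = 0.645). These groups were also apart. Gbp2, a guanylate-binding protein, was 12.09, 11.65 and 11.60 in lean FXR-K217Q, against 11.52 and 10.83 in lean FXR-WT. The lowest mutant array was only just above the higher FXR-WT array, and the change of 0.60 (SE 0.42, adjusted p = 0.827) was 0.26 without FXR-WT replicate 2 and 0.95 without the other. A dimmer Gbp2 probe, detected on only 3 of 11 arrays, gave 0.06. Iigp1, an immunity-related GTPase, had a change of 0.32 (SE 0.26, adjusted p = 0.864), which was 0.07 without FXR-K217Q replicate 1 and 0.61 without FXR-K217Q replicate 3.

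All 10 genes of the GTPase, class I and Cxcl10 set had a positive change in the lean comparison, with a median of 0.32. The median was 0.14 with 9 positive without FXR-K217Q replicate 1, and 0.53 without FXR-K217Q replicate 3. It was 0.48 without FXR-WT replicate 1. In the set of 19 antiviral, regulator and sensor genes, 10 were positive and the median was 0.01. That median was -0.20 with 6 positive without FXR-K217Q replicate 1, and 0.20 with 14 positive without FXR-K217Q replicate 3. It was -0.057 without FXR-WT replicate 2. Its members lay on both sides of 0. Oas3 was 5.62, 5.53 and 5.58 in lean FXR-K217Q, against 5.51 and 4.91 in lean FXR-WT, where its probe was detected on 1 of 2 arrays. Its change of 0.37 (SE 0.28, adjusted p = 0.853) was 0.07 without FXR-WT replicate 2 and 0.67 without the other.

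Oas1a, another 2-5A synthase, was not well above background, being detected on 0 of 3 lean FXR-K217Q arrays and 1 of 2 lean FXR-WT arrays. It read 4.86, 4.70 and 4.88 in lean FXR-K217Q, against 5.63 and 4.92 in lean FXR-WT, with an adjusted p of 0.750. No size of change is given at this signal, where FXR-WT replicate 1 alone stands above the rest. Bst2 was 11.64, 11.44 and 10.80 in lean FXR-K217Q, against 11.89 and 11.43 in lean FXR-WT. These groups overlapped, with a change of -0.37 (SE 0.31, adjusted p = 0.869) that was -0.12 without FXR-K217Q replicate 3 and -0.14 without FXR-WT replicate 1. It was -0.59 without FXR-WT replicate 2. By position alone, 5 members were higher on every FXR-K217Q array than on both FXR-WT arrays (Cxcl10, Gbp2, Psmb8, Tap1 and Oas3) and 1 was lower (Oas1a, mostly below detection), where 10.3% of all genes were higher and 12% lower in this way.

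Neutrophil markers (9 of 10 measured) had a mean log2 level of 6.76, 6.35 and 6.77 in lean FXR-K217Q, against 7.49 and 7.50 in lean FXR-WT. Of the 9, 8 had a negative change, 4 at an unadjusted p under 0.05 and 0 at 5% FDR. Endothelial markers (5 of 6 measured) were at 9.47, 9.78 and 9.53 in lean FXR-K217Q, against 9.93 and 9.87 in lean FXR-WT, with a negative change for 5 of 5 and 0 past 5% FDR, 1 of them at an unadjusted p under 0.05. T and NK cell markers (7 of 12 measured) were at 7.77, 7.61 and 7.58 in lean FXR-K217Q, against 7.72 and 7.47 in lean FXR-WT, and these overlapped. The part of these cells in the lean interferon gene values was not tested.

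**Figure D4:**
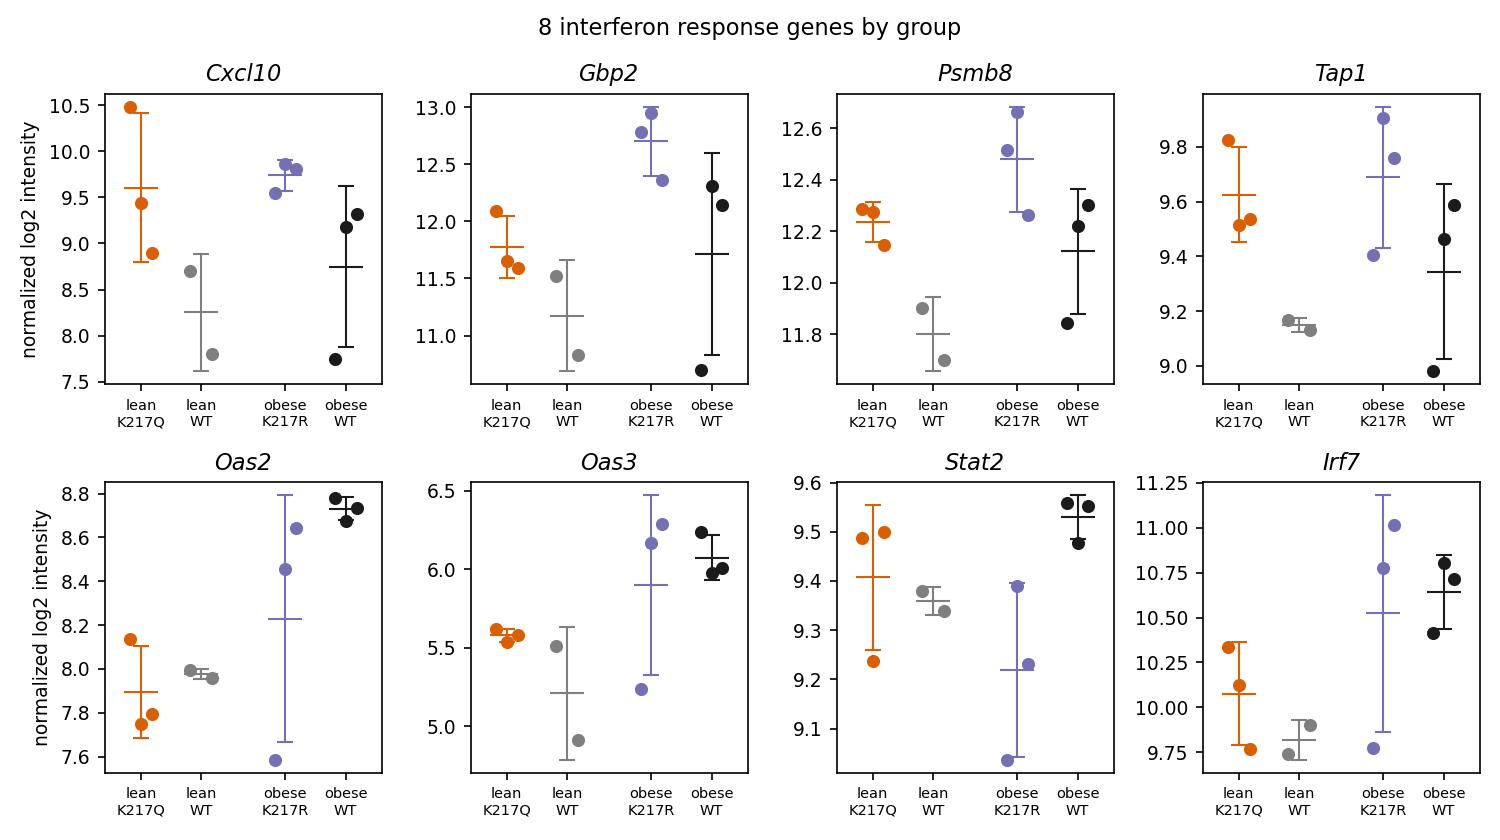
Normalized log2 intensity of 8 interferon response genes, one panel per gene with its own axis. Points are arrays, the horizontal line is the group mean and the bars are 1 SD (3 arrays per group, 2 in lean FXR-WT), with lean FXR-K217Q beside lean FXR-WT and obese FXR-K217R beside obese FXR-WT. Cxcl10 and Gbp2 are higher on all mutant arrays than on the FXR-WT arrays of the same body condition, and Oas2 and Stat2 are lower on all obese FXR-K217R than on all obese FXR-WT arrays.

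The second comparison asks what FXR-K217R, whose arginine cannot be acetylated, did in obese livers relative to FXR-WT. In obese FXR-K217R livers 0 of 29 members passed 5% FDR in limma, where 0% of all genes passed as higher and 0.0388% as lower. At an unadjusted p under 0.05, 2 members were higher (Gbp2 and Psmb8) and 1 was lower (Stat2), where 2.1% of all genes were higher and 2.31% lower. The members' median change was -0.02 with 14 of 29 positive, against -0.0047 and 48.8% over all genes. It was 0.22 with 22 positive without FXR-K217R replicate 1 and 0.10 with 18 positive without FXR-WT replicate 2. It was -0.14 with 11 positive without FXR-K217R replicate 2.

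Gbp2 was 12.79, 12.95 and 12.36 on the obese FXR-K217R arrays, against 10.69, 12.31 and 12.14 on the obese FXR-WT arrays. The groups did not overlap, although FXR-K217R replicate 3 lay close to FXR-WT replicate 2, and FXR-WT replicate 1 was far below all others. The change was 0.99 (SE 0.38, 1.98-fold, adjusted p = 0.993) and 0.48 without FXR-WT replicate 1. Cxcl10 was 9.55, 9.87 and 9.81 in obese FXR-K217R, against 7.74, 9.18 and 9.32 in obese FXR-WT. Again the groups were apart with the same FXR-WT array lowest, and the change of 0.99 (SE 0.47, adjusted p = 0.993) was 0.49 without that array.

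The class I genes had higher means in obese FXR-K217R too, but their groups overlapped. Psmb8 was 12.51, 12.66 and 12.26 in obese FXR-K217R, against 11.84, 12.22 and 12.30 in obese FXR-WT, a change of 0.36 (SE 0.15, adjusted p = 0.993) that was 0.22 without FXR-WT replicate 1. Psmb9, the other inducible proteasome subunit listed, had a change of 0.33 (SE 0.19), or 0.17 without that array, and Tap1 one of 0.35 (SE 0.18), or 0.16 without it. Both had an adjusted p of 0.993. In the set of 10 GTPase, class I and Cxcl10 genes, 10 were positive with a median of 0.35, and 7 were positive with a median of 0.12 without FXR-WT replicate 1.

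The antiviral, regulator and sensor genes were placed differently in the same livers. Of the 19, 4 were positive (Bst2, Ifit2, Ifit3 and Oasl1), with a median of -0.13. The sets were pooled on values of obese FXR-WT replicate 1, which enters this comparison, so a difference between them was partly built in. With FXR-WT replicate 1 left out, 6 of the 19 were positive, with a median of -0.17. Stat2, which carries the type I signal to the nucleus, was 9.04, 9.39 and 9.23 in obese FXR-K217R, against 9.56, 9.48 and 9.55 in obese FXR-WT. Every mutant array was below every FXR-WT array, and the change was -0.31 (SE 0.12, adjusted p = 0.993). Oas2 was 7.59, 8.46 and 8.64 in obese FXR-K217R, against 8.78, 8.68 and 8.73 in obese FXR-WT. These groups too were apart, with FXR-K217R replicate 1 far below, and the change of -0.50 (SE 0.23, adjusted p = 0.993) was -0.18 without that array. Without it, 12 of the 19 genes were positive and their median was 0.12. The median was -0.25 when FXR-K217R replicate 3 was left out and -0.22 when FXR-K217R replicate 2 was, and without FXR-WT replicate 2 it was -0.04.

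Bst2 lay the other way, with 11.57, 12.10 and 12.59 in obese FXR-K217R, against 11.45, 11.53 and 11.81 in obese FXR-WT. The groups overlapped and the change was 0.49 (SE 0.28, adjusted p = 0.993), or 0.24 with FXR-K217R replicate 3 left out and 0.75 with FXR-K217R replicate 1 left out. By position, 2 members (Cxcl10 and Gbp2) were higher on every FXR-K217R array than on every FXR-WT array and 2 (Oas2 and Stat2) were lower, where 4.3% of all genes were higher and 5.55% lower in this way.

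**Figure D5:**
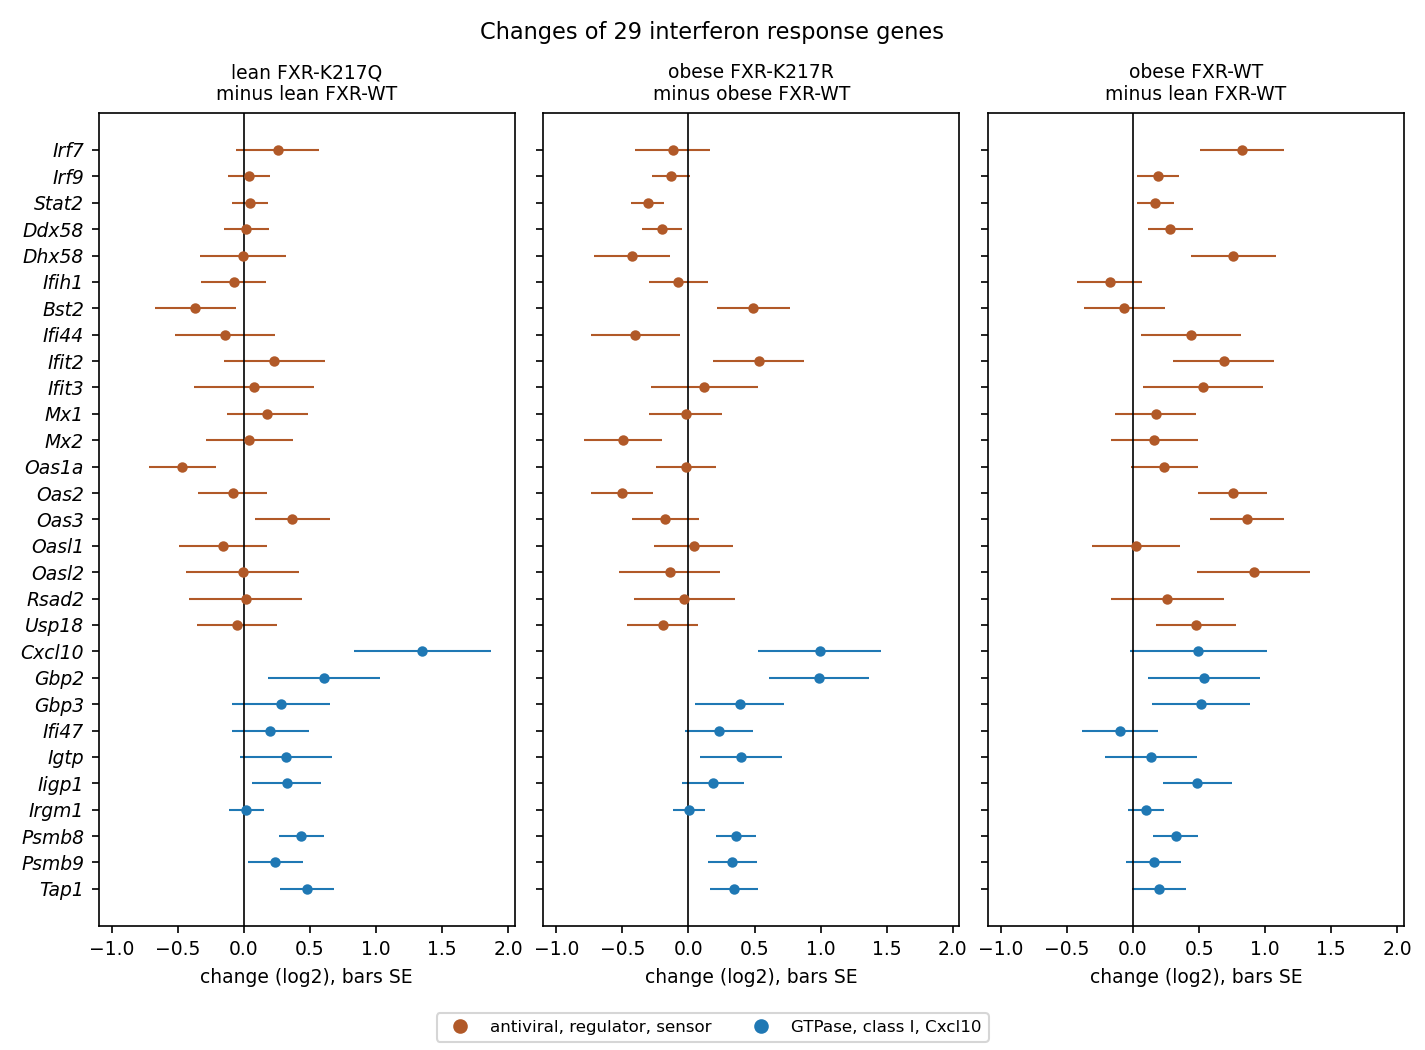
Change of the 29 measured interferon response genes in 3 comparisons, shown as log2 differences between group means (points) with bars of 1 SE, first group minus second as titled. Genes are in rows by role, the 10 GTPase, class I and Cxcl10 genes in blue and the 19 antiviral, regulator and sensor genes in brown. All 10 blue genes are right of 0 in both mutant comparisons, and 17 of 19 brown genes are right of 0 in obese FXR-WT minus lean FXR-WT. Both sets were pooled after these values were seen.

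Markers of other cell types were read on the same arrays. T and NK cell markers (7 of 12 measured, with Klrb1c detected on only 2 arrays) had a mean log2 level of 7.71 to 8.14 in obese FXR-K217R, against 7.13 to 7.87 in obese FXR-WT, and obese FXR-WT replicate 1 was the lowest of all 11 arrays. These ranges overlapped, with a positive change for 6 of the 7, a negative one for 1 and 0 past 5% FDR. Interferon gamma itself (Ifng), named here after its values were seen, was 6.04, 6.03 and 5.54 in obese FXR-K217R, against 4.76, 5.50 and 5.73 in obese FXR-WT, with the same array lowest. These groups overlapped, and the probe was dim, being detected on 10 of 11 arrays. Kupffer cell markers (5 of 6 measured, Timd4 detected on only 5 arrays) had a mean level of 8.03 to 9.84 in obese FXR-K217R, against 9.12 to 9.66 in obese FXR-WT, lowest on FXR-K217R replicate 1, where Oas2 and Stat2 were also lowest. These ranges overlapped too, with a positive change for 1 of the 5, a negative one for 4 and 0 past 5% FDR. Neutrophil markers (9 of 10 measured) had a mean level of 6.39 to 6.85 in obese FXR-K217R, against 8.89 to 9.36 in obese FXR-WT, and 6 of the 9 fell at 5% FDR (3 of 9 without FXR-K217R replicate 1 and 4 of 9 without FXR-WT replicate 2). In bulk liver RNA, fewer cells of a type and less RNA per cell cannot be told apart. The part of these cells in the interferon gene values was not tested.

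The third comparison sets obese against lean livers with the same construct, FXR-WT. In obese FXR-WT livers 0 of 29 members passed 5% FDR in limma, where 0.686% of all genes passed as higher and 0.511% as lower. At an unadjusted p under 0.05, 4 members were higher (Oas3, Oas2, Irf7 and Dhx58) and 0 lower, where 7.23% of all genes were higher and 6.3% lower. The members' median change was 0.28 with 26 of 29 positive, against -0.00075 and 49.9% over all genes. The median was 0.43 without obese FXR-WT replicate 1 and 0.42 when lean FXR-WT replicate 1 was left out. It was 0.20 with 22 positive when lean FXR-WT replicate 2 was left out. Without obese FXR-K217R replicate 1, which enters only the shared estimate of the spread, Oas2 passed (adjusted p = 0.0482).

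Oas2 was 8.78, 8.68 and 8.73 on the obese FXR-WT arrays, against 7.99 and 7.96 on the lean FXR-WT arrays. Both groups were tight and well apart, with a change of 0.75 (SE 0.26, 1.69-fold, adjusted p = 0.238). Oas3 was 6.24, 5.98 and 6.01 in obese FXR-WT, against 5.51 and 4.91 in lean FXR-WT. The groups were apart, and the change of 0.86 (SE 0.28, adjusted p = 0.213) was 0.56 without lean FXR-WT replicate 2. Irf7, the transcription factor that amplifies type I interferon production, was 10.41, 10.80 and 10.71 in obese FXR-WT, against 9.74 and 9.90 in lean FXR-WT. Every obese array was above both lean arrays, with a change of 0.82 (SE 0.32, adjusted p = 0.291).

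Dhx58, the RNA sensor LGP2, was 10.28, 10.07 and 9.98 in obese FXR-WT, against 9.41 and 9.29 in lean FXR-WT, a change of 0.76 (SE 0.32, adjusted p = 0.338). Other probes of Dhx58 gave 0.90 and 0.71. Oasl2, an Oas-like protein, was 10.86, 11.84 and 11.29 in obese FXR-WT, against 10.56 and 10.28 in lean FXR-WT. These groups did not overlap either, and the change was 0.91 (SE 0.43, adjusted p = 0.393). Ifit2 was 8.86, 10.06 and 10.03 in obese FXR-WT, against 9.06 and 8.86 in lean FXR-WT. Here obese FXR-WT replicate 1 lay within the lean values, and the change of 0.69 (SE 0.38, adjusted p = 0.477) was 1.08 without it.

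By position, 8 members were higher on every obese than on every lean FXR-WT array (Irf7, Stat2, Dhx58, Oas2, Oas3, Oasl2, Usp18 and Iigp1) and 0 were lower, where 16.7% of all genes were higher and 16.2% lower in this way. Of these 8, only Iigp1 belongs to the set of 10 GTPase, class I and Cxcl10 genes. Iigp1 was 6.31, 6.73 and 6.83 in obese FXR-WT, against 6.13 and 6.15 in lean FXR-WT, a change of 0.49 (SE 0.26, adjusted p = 0.461), while dimmer probes of the gene, detected on 4 and 2 arrays, gave 0.19 and -0.0044. Psmb8 had a change of 0.32 (SE 0.17, adjusted p = 0.451). The set of 19 genes had 17 positive with a median of 0.28, and the set of 10 had 9 positive with a median of 0.26. For the set of 19 the median was 0.49 with lean FXR-WT replicate 1 left out and 0.42 with obese FXR-WT replicate 1 left out, and 14 were positive with lean FXR-WT replicate 2 left out. For the set of 10 the median was 0.46 with obese FXR-WT replicate 1 left out and 0.12 with lean FXR-WT replicate 2 left out.

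Neutrophil markers rose at 5% FDR for 4 of 9 members between these groups, with a mean log2 level of 8.89 to 9.36 in obese FXR-WT, against 7.49 and 7.50 in lean FXR-WT. That count was 0 of 9 without lean FXR-WT replicate 1, 1 of 9 without lean FXR-WT replicate 2 and 2 of 9 without either obese FXR-WT replicate 2 or replicate 3. Markers of monocytes and macrophages (6 of 8 measured) were at 9.75 or more on each obese FXR-WT array, against 9.76 and 9.46 in lean FXR-WT. Kupffer cell markers (5 of 6 measured) had a positive change for 2 and a negative one for 3, with a median of -0.17. Of these 5, 1 fell at 5% FDR in limma (adjusted p = 0.0180). Endothelial markers (5 of 6 measured) had a positive change for 2 and a negative one for 3, with a median of -0.36. The 3 were lower on every obese than on every lean FXR-WT array, and 0 of 5 passed 5% FDR. Markers of plasmacytoid dendritic cells (5 of 7 measured), known for making type I interferon, had a mean level of 8.85 to 9.32 in obese FXR-WT, against 8.31 to 8.84 in lean FXR-WT. All 5 had a positive change, with a median of 0.22. Their median level overlapped, at 9.13, 9.90 and 9.92 in obese FXR-WT, against 9.71 and 9.57 in lean FXR-WT. Of these 5, 1 rose at 5% FDR, Ly6d, at 12.38, 12.20 and 12.31 in obese FXR-WT, against 11.19 and 9.65 in lean FXR-WT (change 1.87, adjusted p = 0.0428). Without lean FXR-WT replicate 2 its change was 1.10 (adjusted p = 0.337), and the adjusted p ran from 0.00582 to 0.337 without single arrays. Siglech, a surface receptor of these cells, was 7.06, 7.32 and 6.96 in obese FXR-WT, against 6.90 and 6.88 in lean FXR-WT. The part of any of these cell types in the interferon gene values was not tested.

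The change with FXR-K217R in obese livers was also set against the change with FXR-K217Q in lean livers. In limma 0 of 29 members differed at 5% FDR (0% of all genes in each direction), and 0 at an unadjusted p under 0.05, where 2.49% of all genes were higher and 2.23% lower. The smallest unadjusted p among the members belonged to Bst2, whose change was 0.49 with FXR-K217R and -0.37 with FXR-K217Q, a difference of 0.86 (SE 0.41, adjusted p = 1.00). Stat2 (-0.36), Oas3 (-0.54), Mx2 (-0.53), Oas2 (-0.42), Dhx58 (-0.42) and Ddx58 (-0.22) had negative differences. Without obese FXR-K217R replicate 1 these were -0.27 for Stat2, -0.21 for Oas3, -0.23 for Mx2, -0.10 for Oas2, -0.08 for Dhx58 and -0.13 for Ddx58. Over all single arrays left out they kept their sign, reaching -0.44 for Stat2, -0.84 for Oas3, -0.77 for Mx2, -0.63 for Oas2, -0.67 for Dhx58 and -0.36 for Ddx58, which was nearest to 0 (-0.088) without lean FXR-WT replicate 1. Bst2 ran from 0.61 to 1.12, on the probe with the largest bead-to-bead standard error among the members. A p that misses the threshold does not show that the mutants act alike, since the SE of these differences ran from 0.18 to 0.44. The members' median difference was -0.13, but its sign depended on single arrays. It was 0.08 without lean FXR-K217Q replicate 1, 0.03 without obese FXR-K217R replicate 1 and 0.05 without obese FXR-WT replicate 2. It was -0.27 without lean FXR-K217Q replicate 3 and -0.24 without obese FXR-WT replicate 1.

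The rest of the pathway was read through 104 further genes in 6 lists, of which 86 were measured. At 5% FDR 0 of the 86 passed in limma in any of the comparisons, while at an unadjusted p under 0.05 2 were higher and 2 lower in lean FXR-K217Q, 5 higher and 3 lower in obese FXR-K217R, and 9 higher and 0 lower in obese FXR-WT relative to lean FXR-WT. Over all genes those shares were 2.95% higher and 4.26% lower, 2.1% and 2.31%, and 7.23% and 6.3%. In the difference between the mutant changes 0 of the 86 were higher and 2 lower, against 2.49% and 2.23% of all genes. Among the interferons, probes of Ifnb1, Ifna2, Ifna4, Ifnk and Ifnl3 were detected on 0 of 11 arrays, Ifna1 on 6 and Ifng on 10. The probe of the receptor chain Ifnar1 was detected on 0 arrays. Ifngr2, the signalling chain of the interferon gamma receptor, was 9.76, 9.83 and 9.67 in obese FXR-WT, against 9.28 and 9.06 in lean FXR-WT. The groups were apart, with a change of 0.58 (SE 0.12, adjusted p = 0.0532), the smallest adjusted p among all the interferon genes measured. In obese FXR-K217R livers its change was -0.28 (SE 0.11, adjusted p = 0.993).

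Downstream of the receptors, Irf1, a transcription factor that interferon gamma induces, was 12.78, 12.55 and 12.59 in lean FXR-K217Q, against 12.30 and 11.96 in lean FXR-WT. The groups did not overlap, and the change was 0.51 (SE 0.16, adjusted p = 0.494), or 0.34 to 0.68 without single arrays. In obese FXR-K217R the change of Irf1 was only 0.02 to 0.23 without single arrays. It was 0.19 to 0.53 in obese FXR-WT relative to lean FXR-WT. Jak1, the kinase both receptors use, had a change of -0.33 (SE 0.13, or -0.21 without FXR-K217Q replicate 1) in lean FXR-K217Q and of -0.27 (SE 0.12) in obese FXR-K217R, and neither passed.

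Cxcl9, which like Cxcl10 attracts T cells and is a typical interferon gamma target, was 13.39, 13.29 and 12.73 in obese FXR-K217R, against 10.95, 12.32 and 12.38 in obese FXR-WT. The groups were apart, and the change of 1.25 (SE 0.34, adjusted p = 0.959) was 0.78 without FXR-WT replicate 1. In lean FXR-K217Q its change was 0.68 (SE 0.38, adjusted p = 0.759). Of the 10 measured genes in this list of other GTPases and interferon gamma genes, 9 were positive in lean FXR-K217Q (median 0.28) and 9 in obese FXR-K217R (median 0.40). Among other class I genes, H2-Q7 was 12.82, 13.01 and 12.94 in obese FXR-K217R, against 12.21, 12.42 and 12.66 in obese FXR-WT, a change of 0.50 (SE 0.14, adjusted p = 0.959), and 10 of 14 in the list were positive (median 0.21). In lean FXR-K217Q 11 of the 14 were positive (median 0.13), with H2-T23 at 0.40 (SE 0.14, adjusted p = 0.547).

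The list of other antiviral genes had 28 measured members, of which 24 were positive in obese FXR-WT relative to lean FXR-WT, with a median of 0.22. Of the 28, 12 were higher on every obese than on every lean FXR-WT array, against the 16.7% of all genes given above. Dtx3l, a ubiquitin ligase of antiviral defence, was 11.23, 11.28 and 11.01 in obese FXR-WT, against 10.70 and 10.54 in lean FXR-WT, a change of 0.55 (SE 0.16, adjusted p = 0.141), and Lgals3bp, a secreted galectin ligand, had one of 0.56 (SE 0.18, adjusted p = 0.217). With the mutants the same list was near 0, with 17 positive in lean FXR-K217Q (median 0.01) and 12 in obese FXR-K217R (median -0.05). The FXR-WT arrays serve in several of these comparisons, so a low or high FXR-WT array moves them together.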

How the data were processed

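Per the file headers, the authors' non-normalized table holds a mean bead intensity per probe and array, with its standard error, bead count and detection p-value. The authors also deposited normalized log2 values, which were used as an alternative. Per the submitters' processing notes they used limma 3.12.3, and the sources used here name no software for the bead summary.

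The neqc function of limma 3.58.1 (R 4.3.3) corrected the background from the detection p-values, added an offset of 16 and normalized quantiles. Probes were kept where 2 or more arrays had a detection p-value below 0.05 (21485 of 45281), with the brightest probe per symbol, which left 15460 genes. Older symbols of the members and listed genes were updated through the RefSeq gene table. One limma model (lmFit, eBayes) with 4 group means was fitted to all 11 arrays, two-sided, with Benjamini-Hochberg adjustment over all genes within each contrast. Changes compare mean log2 intensities, first group minus second, and levels of different probes were not compared. The procedure was tested on simulated data.

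The members, lists and alternatives were chosen with earlier results of these data known, and both pooled sets after the values were seen. Changes are printed for the 8 members with the smallest unadjusted p per comparison (for the dim Oas1a, levels only), and for up to 2 genes of each further list, with Irf1 and Nr1h4 always. Another gene that the rule names is not reported here. Members named by their position between groups, by a pooled set or by an alternative fall outside this rule. Another probe was tested in 14 such pairs of member and comparison, and 1 value of 18 had the opposite sign. Promoters were taken for up to 6 members named most often, of which Oas2 had no entry.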

Additional observations from a re-analysis of the deposited data

How the results depend on the processing

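Under the 23 alternative settings, 0 of 29 members passed 5% FDR in limma in either mutant comparison or in the difference between them, and the 32 changes of members chosen for printing kept their sign wherever they could be computed. Oas1a and Oas3 have no value on probes detected on all 11 arrays. In obese FXR-WT against lean FXR-WT, 2 members passed once lean FXR-K217Q replicate 3 and obese FXR-WT replicate 1 were left out together (Ifit2 at 1.08, adjusted p = 0.0275, and Gbp3 at 0.93, adjusted p = 0.0455), and leaving out single arrays gave 0 to 1. The median change of the members in that comparison was 0.18 with no background correction and 0.43 with both left out, and 0.20 to 0.43 without single arrays. In obese FXR-K217R it was -0.14 to 0.22 without single arrays. Besides the medians above and in the comparisons, signs turned for 2 genes. In lean FXR-K217Q, Nr1h4 was at 0.0085 without FXR-K217Q replicate 2 (-0.17 to 0.0085), and Ifna1 at -0.072 without FXR-WT replicate 1 (-0.072 to 0.82). Ifngr2 in obese FXR-WT passed in 6 settings, with adjusted p of 0.0153 to 0.0442, against 0.0506 to 0.474 in the others. The causes were not tested.

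Over all genes, the count in obese FXR-WT was 106 higher and 79 lower. It was 66 and 44 with only the arrays compared, 54 and 48 with the replicate block, 313 and 201 with array weights, 271 and 197 with both arrays left out, and 163 were higher with an intensity trend. Without single arrays it ran from 12 and 24 (lean FXR-WT replicate 2 left out) to 162 and 123 (lean FXR-K217Q replicate 3 left out). The count in obese FXR-K217R was 6 lower, 2 with only its arrays or on probes detected on all 11 arrays, 3 without FXR-K217R replicate 1 or with the replicate block, and 10 without lean FXR-K217Q replicate 3. Counts of 0 elsewhere reached at most 2. Same-numbered arrays did not deviate together in every pair (correlations of -0.11 to 0.23). With group means of 2 to 3 arrays taken out, these values cannot decide whether the numbers pair the samples. With the replicate block 0 members passed, and their median changes were 0.08, -0.02 and 0.34 in lean FXR-K217Q, obese FXR-K217R and obese FXR-WT. A slide block was not run because the files name no slide. The limits are 2 to 3 arrays a group, of unknown animals, and dim probes for Oas1a, Oas3, Mx1 and Ifi44.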

Other observations

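Tap1 and Psmb9 lie head to head on mouse chromosome 17, and their promoter windows of 300 bases share 275 bases. Their changes were 0.48 and 0.24 in lean FXR-K217Q, 0.35 and 0.33 in obese FXR-K217R, and 0.20 and 0.16 in obese FXR-WT relative to lean FXR-WT, for Tap1 and Psmb9 in that order, and none passed 5% FDR in limma.

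The members differed widely in how far they ranged over the 11 arrays. Cxcl10 spanned 2.74 on the log2 scale between its lowest array, obese FXR-WT replicate 1, and its highest, lean FXR-K217Q replicate 1, and Gbp2 spanned 2.26. Irgm1, an immunity-related GTPase, spanned 0.41, Irf9 0.49 and Stat2 0.52. Of the 29 members, 12 were positive in both mutant comparisons, 10 of them from the set of 10 GTPase, class I and Cxcl10 genes, where 27.5% of all genes were positive in both. The set was pooled after these values were seen, on the low values of obese FXR-WT replicate 1, so its count was partly built in. Of the 10, 7 were positive in obese FXR-K217R without that array. The count is therefore only a description.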
